A study of Caenorhabditis elegans with 4 samples.

Results

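The regions described are the stretches of Caenorhabditis elegans chromosome III at which trimethylation of histone H3 at lysine 4 (H3K4me3) was called in whole L3 larvae. They were taken from the deposited peak lists of 2 chromatin immunoprecipitation samples. All peaks listed on III were used, and peaks of the 2 lists that overlapped by at least 1 bp were joined into a region. A region that held a peak of each list was called shared. Chromosome III held 843 regions of the 4661 on all 6 chromosomes, against 3089 on the other autosomes (I, II, IV and V) together. Of the 843, 557 were shared, 248 came from replicate 1 alone and 38 from replicate 2 alone.

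H3K4me3 is laid down by SET1/MLL-type methyltransferase complexes and is known from the promoters and the first part of transcribed genes. In C. elegans many genes are trans-spliced and some are grouped in operons, so the mark often lies some distance from the annotated gene start and may serve several genes in a row. The centres of the autosomes are known to be rich in widely expressed, conserved genes, whereas the arms hold more repeats and more heterochromatin and recombine more often in meiosis.

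Both ChIP samples were from the wild-type strain N2 at larval stage L3, raised in liquid culture, with no treatment or mutant in either, and immunoprecipitated with the same Wako antibody. Whole bodies were used, so a peak can come from any tissue of the larva, and nothing in the labels says that the samples came from separate cultures. The labels also describe 2 input DNA samples, which were not analysed here. Coordinates refer to the WS190 build of WormBase, and no gene or sequence of that build was used.

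The lists held 4408 peaks in replicate 1 and 3280 in replicate 2, and read depths are not known. The score of each peak is the authors' own value on an unnamed scale. It runs from just above 50 to a ceiling of 3100, at which many peaks are tied, and the few peaks above 3100 were counted as tied with them. Scores were therefore read as percentiles within each whole list, where a peak at the ceiling stands at 85.1 in replicate 1 and at 90.9 in replicate 2. With 2 samples of a single group no test over samples was possible. An exact one-sided test of 1 chromosome against 4 has a smallest possible p of 0.2, so the comparisons with other autosomes are descriptions, and intervals cover counting error only.

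Chromosome III was the shortest autosome by the span of its peaks (13.8 Mb) and carried the most H3K4me3 regions per Mb. It made up 13.8% of the span of the 6 chromosomes but held 18.4% of the peaks of replicate 1 (810 peaks, 95% Wilson interval 17.3 to 19.5%), 18.6% of those of replicate 2 (609 peaks, 17.3 to 19.9%) and 19.1% of all shared regions. Peaks stood at 58.8 per Mb in replicate 1 and at 44.2 per Mb in replicate 2, against 31.3 to 55.1 and 24.7 to 43.0 on the other autosomes. III was thus the densest of the 5 in each list, although chromosome I came close in both. Shared regions covered 8.03% of III, against 4.04 to 7.66% of the other autosomes.

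The replicates overlapped on III about as much as elsewhere. Of its regions 66.1% were shared (62.8 to 69.2%), against 59.9 to 68.7% on single other autosomes and 62.6% over all 6 chromosomes. Of the replicate 1 peaks of III, 562 were found in replicate 2 (69.4%, 66.1 to 72.5%), against 66.9% of that list as a whole. Of the replicate 2 peaks, 571 were found in replicate 1 (93.8%, 91.6 to 95.4%), against 91.3% of that list. These shares lie near the background and do not set III apart. Chromosome III had the smallest number of regions called in replicate 2 alone among the autosomes (38, against 40 to 69), but per Mb it stood within their range (2.76, against 2.66 to 3.34).

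Along III the shared regions formed a broad plateau with sparser flanks. The first 4 windows of 1 Mb from the left end held 31, 23, 24 and 32 shared regions. The next 7 windows, from 4 to 11 Mb, held 58, 59, 45, 44, 54, 51 and 44. The plateau therefore began abruptly on the left side and had a shallow dip at 6 to 8 Mb.

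To the right of 11 Mb the whole windows held 36 and 29, and the last, shorter window of 0.772 Mb held 27 shared regions, or 35.0 per Mb. No whole window of III held under 20 shared regions. On the other autosomes 1 of 15 windows of I, 3 of 15 of II, 3 of 17 of IV and 9 of 20 of V did. The peak counts of the 2 lists followed each other along III, with Spearman's rho of 0.948 and Pearson's r of 0.95 over 13 whole windows, which share the same chromosome and the same pair of samples and are given as a description.

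**Figure D1:**
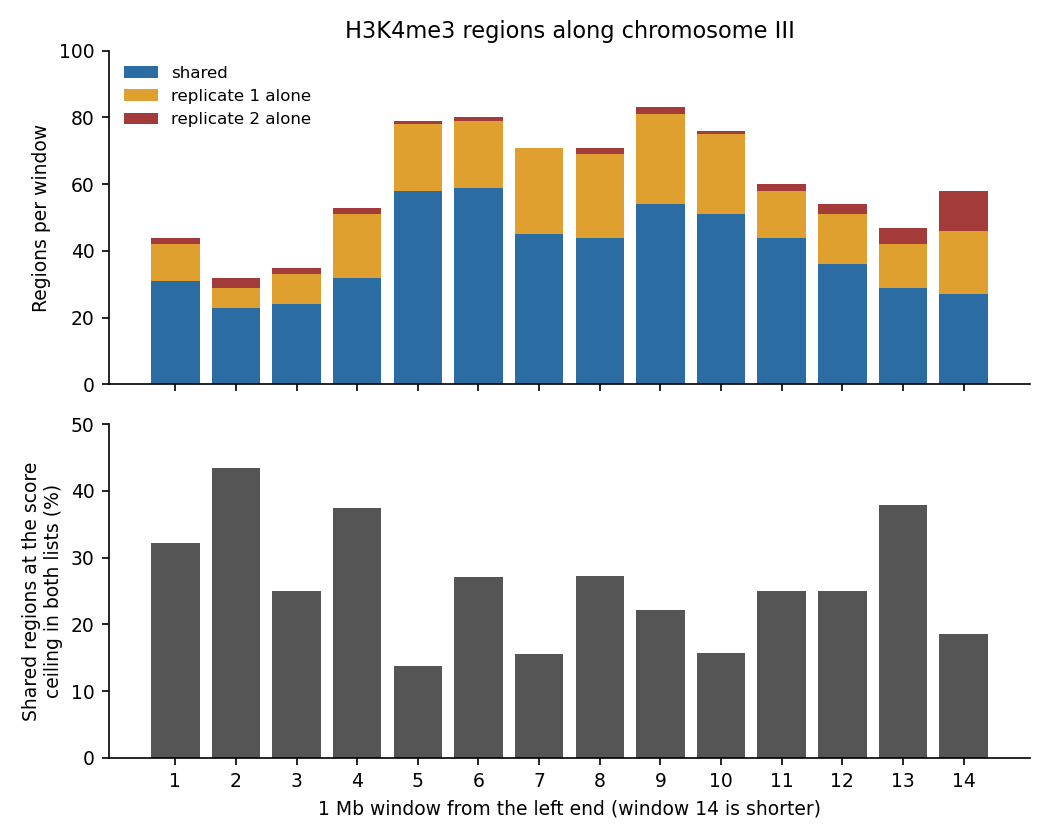
Upper panel: number of H3K4me3 regions in each 1 Mb window of chromosome III, counted from the left end, with shared regions, regions of replicate 1 alone and regions of replicate 2 alone stacked. Lower panel: percent of the shared regions of each window at the score ceiling in both lists. The windows from 4 to 11 Mb held 44 to 59 shared regions, the highest ceiling share was in the second window (43.5%), and most regions of replicate 2 alone per window were in the last one (12).

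In the whole windows, regions called in replicate 1 alone followed a similar profile. They numbered 6 to 11 in the first 3 windows, 19 to 27 in the windows from 3 to 10 Mb and 13 to 15 in the whole windows beyond. The last, shorter window departed from it with 19, or 24.6 per Mb, a value within the range of the windows from 3 to 10 Mb. Across the 13 whole windows their number had a Spearman's rho of 0.807 with the number of shared regions. Regions of replicate 2 alone did not follow this profile: 0 to 3 lay in each of the first 12 windows, 5 in the window from 12 to 13 Mb and 12 in the last one. The last window was the least shared of III, with 46.6% of its 58 regions shared, against 60.4 to 73.8% in the whole windows.

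The densest windows were not those with the highest share of regions at the ceiling. At the ceiling in both lists were 10 of 23 shared regions in the second window (43.5%), 11 of 29 in the thirteenth (37.9%) and 12 of 32 in the fourth (37.5%). In the fifth window, where the plateau begins, it was 8 of 58 (13.8%), and in the seventh and the tenth 15.6 and 15.7%. Over the 13 whole windows the number of shared regions and the share at the ceiling had a Spearman's rho of −0.69, a description over few windows of 1 chromosome. The number of shared regions is also the denominator of that share, so a negative rho arises in part by construction. With the median score percentile of all peaks the relation was weaker, with a rho of −0.33 in replicate 1 and −0.40 in replicate 2. The fourth window, high in its ceiling share, had the lowest replicate 1 median of the whole windows (45.9). The absolute number at the ceiling varied less, from 6 to 16 per whole window.

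Divided into 3 equal parts, III was densest in the middle and denser on the right than on the left. The left part held 144 shared regions (31.4 per Mb), the middle part 232 (50.5 per Mb) and the right part 181 (39.4 per Mb). The middle of III stood beside that of chromosome I (50.4 per Mb) and above those of II, IV and V (30.1 to 40.7 per Mb). The right part of III had the highest density of the 5 right parts, where the other autosomes had 14.8 to 33.2 per Mb, whereas its left part came after that of I (37.1 per Mb). The ratio of left to right was 0.796, and among the other autosomes II was the one with a lower ratio (0.574).

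The ratio of middle to outer density on III was 1.43 in shared regions, 1.48 in the list of replicate 1 and 1.30 in that of replicate 2. Other autosomes ranged from 1.43 to 1.88, 1.44 to 1.98 and 1.29 to 1.69 in the same order. III was at or near the low end of each range. The middle part of III was dense, and the outer parts were dense too: they held 35.4 shared regions per Mb, against 16.0 to 33.8 on the other autosomes.

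**Figure D2:**
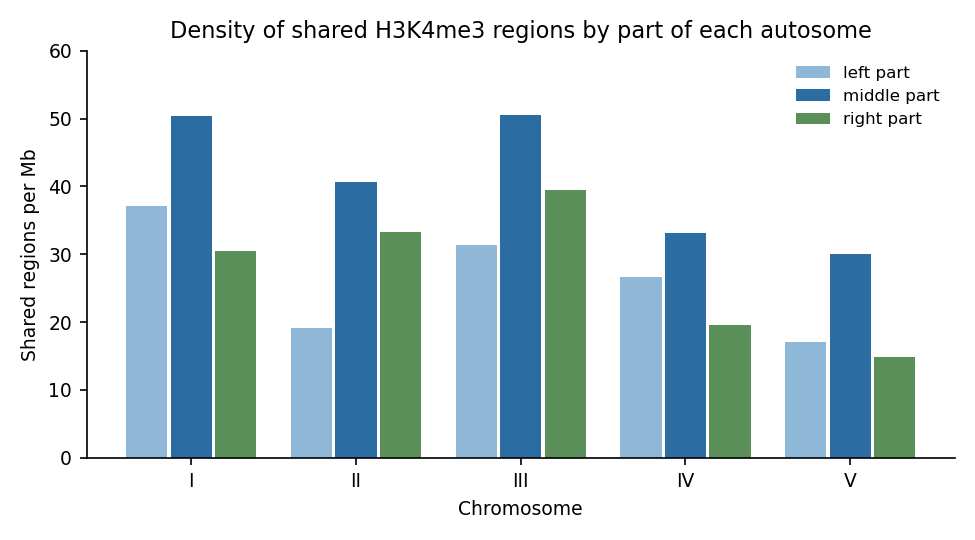
Shared H3K4me3 regions per Mb in the left, middle and right part of the span of each autosome. On chromosome III the bars stand at 31.4, 50.5 and 39.4 per Mb, and its right part is the highest of the 5 right parts.

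The parts of III differed less in score and width than in density. In replicate 1 the median score percentile of all peaks was 58.3 in the left part, 55.2 in the middle and 53.1 in the right, and in replicate 2 it was 57.4, 55.1 and 53.2. The order from left to right was thus the same in both lists, with a narrow range. For shared regions the median of the mean percentile of both lists was 71.8, 65.5 and 62.1 from left to right, a wider range. The ceiling was reached in both lists by 29.9% of the shared regions on the left (23.0 to 37.8%), 22.4% in the middle (17.5 to 28.2%) and 23.2% on the right (17.7 to 29.9%), with overlapping intervals. Median widths of shared regions were 1623, 1748 and 1670 bp.

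Replicate 2 peaks had a partner in replicate 1 most often in the middle of III. The share was 97.5% there (234 of 240, 94.7 to 98.8%), 93.8% in the left part (89.0 to 96.6%) and 89.4% in the right part (84.4 to 92.9%). The interval of the right part does not reach that of the middle. On each of the other autosomes the middle part likewise had the highest share (90.7 to 97.6%). For replicate 1 peaks the shares in the same order were 68.1, 71.6 and 69.3%, with no such order. The right part held 22 of the 38 regions called in replicate 2 alone, the left part 10 and the middle part 6.

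The densest segments of III lay on the plateau. Among segments of 100 kb, the one at III:9730001-9830000 held 14 shared regions, which covered 27.5% of it, with 1 further region of replicate 1 alone. Its list counts were 15 peaks in replicate 1 and 14 in replicate 2, and the median gap between its shared regions was 2565 bp. The corresponding densest segments of the other autosomes held 9 to 11 shared regions, so the 3 densest of III, with 14, 13 and 12, were all above them. These are maxima over segments started every 10 kb. Among adjoining segments of 100 kb the contrast with I was smaller, with a highest count of 11 on III, 10 on I and 7 to 9 on II, IV and V. Segments with 8 or more shared regions made up 7.30% on III and 7.33% on I, against 0 to 2.63% on II, IV and V.

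The second segment, III:5780001-5880000, held 13 shared regions and 5 of replicate 1 alone, with 18 peaks in replicate 1 and 13 in replicate 2. The third, III:6880001-6980000, held 12 shared regions and 2 of replicate 1 alone, and the shared ones covered 25.3% of it. Score ranks in these segments were not high. The median over their shared regions of the mean percentile of the 2 lists was 54.4, 37.3 and 53.8, against 65.9 for III as a whole, and 1, 1 and 2 of their regions were at the ceiling in both lists. Median widths there were 1723, 1484 and 1922 bp. In the median of the mean percentile, the densest segments of the other autosomes likewise stood below their own chromosome. The values were 59.9 against 62.9 on I, 64.8 against 68.5 on II, 54.1 against 62.8 on IV and 51.7 against 60.9 on V.

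Shared regions were spread more evenly over III than over the other autosomes. Of 137 adjoining segments of 100 kb, 2 held no shared region (1.46%), against 2.67% on I, 8.55% on II, 13.2% on IV and 23.6% on V. This share also falls as density rises, and III was the densest of the autosomes. The ratio of the variance to the mean of the counts was 1.14 on III and 1.27 to 1.42 on the other autosomes. The coefficient of variation of the gaps between neighbours was likewise lowest on III (1.09, against 1.23 to 1.35).

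The median gap between neighbouring shared regions of III was 14408 bp (interquartile range 5184 to 32122 bp), the shortest among the autosomes, where it was 14596 to 27112 bp. It was 11047 bp in the middle part, 16512 bp on the right and 18174 bp on the left. Gaps over 50 kb numbered 70 and took up 37.9% of the span of III, against 40.4 to 68.7% on the others. III had 10 gaps over 100 kb, whereas the other autosomes had 14 to 53. Long gaps become fewer and short gaps more frequent as density rises, and III was the densest and the shortest autosome.

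The longest stretch of III without a shared region ran from 1261942 to 1416756 (154.8 kb), and the longest on the other autosomes measured 276.8 to 548.0 kb. It held 1 peak of replicate 2 alone with a score of 604. The next was at III:2174121-2313826 (139.7 kb) and held no peak of either list. The third, at III:6732349-6868627 (136.3 kb), broke the plateau and held 5 weak regions of replicate 1 alone, with scores up to 143.

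Those at III:2948652-3067208 (118.6 kb) and III:672431-782576 (110.1 kb) held 1 and 2 regions of replicate 1 alone, with scores up to 98.4 and 964. Of these 5 longest gaps, 4 were in the left part. At the ends of the chromosome, the first shared region was at III:63165-64482 and the last at III:13768725-13772334, whose end sets the span used here.

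At the other extreme, 45 of the 556 gaps on III were 1 kb or shorter (8.09%, against 5.08 to 6.94% on the other autosomes). They were less frequent in the left part (4.20% of its gaps) than in the middle (9.48%) and on the right (9.39%). Joined at this distance, 89 shared regions (16.0%) stood in 44 groups, and 43 of these were pairs. The remaining group held 3 regions, at III:6967685-6974642, with gaps of 433 to 477 bp and widths of 999 to 4043 bp.

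The closest pair was at III:8887069-8888171 and III:8888175-8889803, 3 bp apart. The left member scored 455 in replicate 1 and 59.4 in replicate 2, and the right member was at the ceiling in replicate 1 and scored 1223 in replicate 2. Peak positions cannot tell such a pair from 1 stretch of the mark that was called in 2 pieces. Merging peaks of a list that were closer than 500 bp left 524 shared regions on III.

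The score ranks of shared regions were ordered by spacing on III in another way than on the other autosomes, a description with no test. On III the median of the mean percentile was 58.4 for shared regions within 1 kb of the nearest other one (89 regions), 63.4 from there to 5 kb (152), 74.0 from 5 to 20 kb (232) and 56.6 beyond 20 kb (84). On I, II, IV and V the regions farther than 20 kb from the nearest one had the highest median of the 4 classes, 65.5 to 76.7. Isolated regions of III thus stood lower in rank than the rest of III (69.8), whereas on each of the other autosomes isolated regions stood higher than the rest. The share of isolated regions at the ceiling in both lists set III apart less: it was 20.2% on III (17 of 84, 13.0 to 30.0%) and 26.2% on the other autosomes together (22.4 to 30.4%), with overlapping intervals, and V had 20.3%.

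The lower rank of isolated regions was present in both lists and in each part of III. In replicate 1 their median percentile was 62.6, against 85.1 for the other shared regions of III, and in replicate 2 it was 49.7, against 60.8. The value of 85.1 is that of peaks tied at the ceiling, so the size of the replicate 1 contrast is set in part by the ties. The median of the mean percentile was 59.3 for the 29 isolated regions of the left part, against 71.8 for all shared regions there. It was 52.8 for the 22 of the middle part, against 65.5, and 56.2 for the 33 of the right part, against 62.1. Isolated regions also stood lower in the left part of I (55.2, against 59.8) and the middle part of IV (56.1, against 61.9). So they did in the right part of V (66.0, against 71.4), whereas in the remaining parts of the other autosomes they stood higher. With a distance of 30 kb the median was 57.5 on III (41 regions) and 62.7 to 76.6 on the others. With 15 kb it was 63.7 on III, against 67.2 for the rest of III, and chromosome V then had a slightly lower value (63.5). In the list of replicate 1 the median on III was 68.7 with 15 kb and 61.9 with 30 kb, against 69.9 for the rest in each case. In that of replicate 2 it was 57.2 with 15 kb, against 58.7, and 48.7 with 30 kb, against 58.99. The contrast within single lists was thus narrow with 15 kb. The classes of distance, with their limit of 20 kb, and the alternatives of 15 and 30 kb were all chosen after the data were seen.

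**Figure D3:**
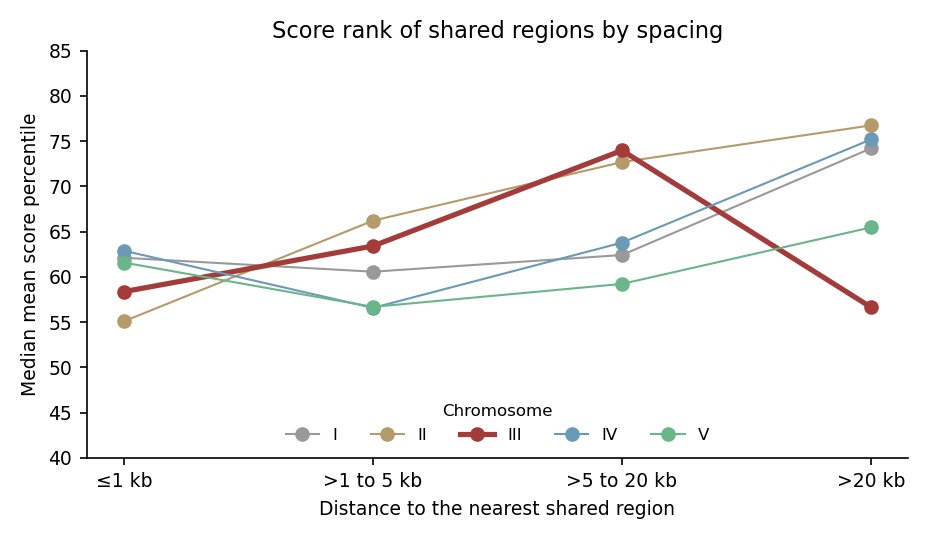
Median of the mean score percentile of shared regions (vertical axis, from 40 to 85) by the distance to the nearest other shared region, for the 5 autosomes. On chromosome III the value goes from 74.0 in the class from 5 to 20 kb to 56.6 beyond 20 kb, whereas it is highest beyond 20 kb on the other 4.

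Widths on III were close to those of the other autosomes. Peaks had a median width of 1345.5 bp in replicate 1 (interquartile range 971 to 1882 bp) and 1467 bp in replicate 2 (1080 to 2019 bp), against 1246 to 1313 bp and 1336.5 to 1475.5 bp elsewhere. Shared regions had a median of 1690 bp (1256 to 2346 bp), within the range of 1566 to 1733 bp. More than 1 and up to 2 kb was the most common class, with 317 of the 557 (56.9%, against 56.4% on the other autosomes together). The narrowest was at III:1164666-1165400 (735 bp), with scores of 78.0 and 111.

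Wider shared regions of III stood higher in rank. At the ceiling in both lists was 1 of 49 regions of up to 1 kb (2.04%), 14.2% of those up to 2 kb, 42.1% up to 3 kb, 54.7% up to 5 kb and 61.5% of those above. Width and score come from the same calls on the same reads and are not separate measures. In replicate 1 narrow peaks were those most often missing from the other list. Of the 220 peaks of replicate 1 that were up to 1 kb wide, 31.8% were found in replicate 2, whereas it was 79.6% of those of over 1 to 2 kb and 90.8% of those of over 2 to 3 kb. In replicate 2 the share was 87.2% for peaks of up to 1 kb (95 of 109) and 95.1 to 96.2% in the classes from there to 5 kb, but lowest for the few peaks over 5 kb (6 of 9).

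Of the 557 shared regions, 539 held a single peak of each list (96.8%, against 96.2 to 96.8% elsewhere). In 13 regions 1 peak of replicate 1 met 2 of replicate 2, in 4 it was the reverse, and 1 region held 2 peaks of each. That region, at III:5447135-5452165, held the most peaks of any on III. Among those with 3 peaks, the first along the chromosome were at III:1532365-1534448 and III:1617200-1622088, both at the ceiling in replicate 1, and the second also in replicate 2.

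In the 539 regions with single peaks the borders were placed closely alike. The median offset between the lists was 52 bp at the left border, 56 bp at the right border and 55 bp at the midpoint. Replicate 1 had the wider peak in 341 of them (63.3%) and replicate 2 in 198, with a median log2 ratio of widths of 0.05. Midpoints lay over 500 bp apart in 36 regions (6.68%), against 3.36 to 5.49% on the other autosomes, and the largest offset on III was 1694 bp.

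Chromosome III was at or near the top of the autosomes in score. The median percentile of its peaks was 55.6 in replicate 1, where the others had 50.4 to 53.6, and 55.1 in replicate 2, where they had 47.2 to 55.9. Of its peaks, 275 reached the ceiling in replicate 1 (34.0%, 30.8 to 37.3%), against 29.8% of that list, and 138 did in replicate 2 (22.7%, 19.5 to 26.2%), against 18.1%. In replicate 1 chromosomes I and II reached nearly the same share, up to 33.5%. Both lists were at the ceiling in 137 shared regions of III (24.6%), against 17.9 to 24.1% on the other autosomes and 20.3% of all shared regions.

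The ceiling was nested between the lists on III, as on each of the other autosomes. In 137 shared regions both lists were at the ceiling, in another 137 replicate 1 alone was, and in 0 replicate 2 alone was, a count that was 0 on I, II, IV and V too. All 275 ceiling peaks of replicate 1 on III had a partner in replicate 2, and all 138 of replicate 2 had one in replicate 1. On the other autosomes together 928 of 931 (99.7%) and 425 of 425 had one, so this does not set III apart. Spearman's rho of the scores was 0.898 over the 557 regions, against 0.857 to 0.906 on the other autosomes, and 0.788 over the 283 regions that were at the ceiling in neither list. The regions share 1 chromosome and 1 pair of samples, and the value is a description.

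**Figure D4:**
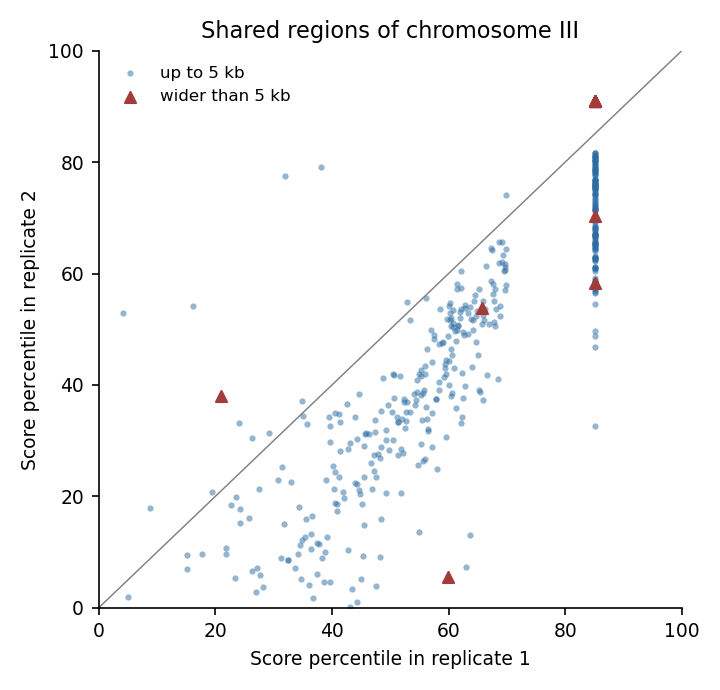
Score percentile of each shared region of chromosome III within the list of replicate 1 (horizontal) and replicate 2 (vertical). Triangles are regions wider than 5 kb, the line marks equal percentiles, and the 137 regions at the ceiling in both lists lie on a single point at 85.1 and 90.9.

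The median absolute difference of the percentiles was 11.0 on III, and 268 of the 557 shared regions (48.1%) were within 10 points. These 268 include the 137 regions at the ceiling in both lists, where ties fix the difference (replicate 1 minus replicate 2) at −5.8. The share within 10 points is thus set in part by the ties. Most points lie under the diagonal, with a median difference of 10.7 (replicate 1 minus replicate 2). Percentiles were taken within lists of different length, so this offset does not compare the amount of the mark. The difference was over 25 points in 66 regions (11.8%, against 13.9% on the other autosomes together), of which 62 stood higher in replicate 1 and 4 in replicate 2.

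The widest disagreements on III were of a few kinds. The region at III:6897655-6900505 scored 2051 in replicate 1, with a peak of 2851 bp, and 65.7 in replicate 2, with a peak of 852 bp. That at III:9636474-9642597 scored 1721 and 61.7. That at III:4560396-4564129 was at the ceiling in replicate 1 and scored 257 in replicate 2. In these 3 regions replicate 2 covered less of the region than replicate 1.

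The reverse was seen at III:10986513-10987905, which scored 62.5 in replicate 1 and 814 in replicate 2. It was also seen at III:3334130-3337350 (272 and 2538) and at III:10355708-10358034 (405 and 2750). At the middle one of these the replicates covered nearly the same bases (3031 and 3221 bp), so its disagreement was one of score and not of extent.

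By the width of the joined region, broad sites were neither frequent nor rare on III. Of its shared regions 13 were wider than 5 kb (2.33%, 1.37 to 3.95%), against 2.23% of all shared regions and 1.30 to 3.25% on the other autosomes. They covered 76.7 kb, or 6.93% of the bases of shared regions of III, and 4 lay in the left, 5 in the middle and 4 in the right part. The narrowest of them measured 5024 bp and the next narrower shared region 4889 bp. The closest 2 broad sites were 145.4 kb apart, so they did not lie next to each other.

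These widths are those of the joined region. In 7 of the 13 a single peak of replicate 1 exceeded 5 kb, in 6 one of replicate 2 did, and in 2 both did. Regions with a peak over 5 kb in each list numbered 2 to 7 on the other autosomes, so by this count III was at the low end. In 2 no peak of either list did. Both lists were at the ceiling in 8 of the 13, and replicate 1 was in 10.

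The widest region, III:10812571-10820170 (7600 bp), was 1 peak of 7591 bp at the ceiling in replicate 1 and 2 peaks with 7544 bp in replicate 2, where the highest scored 1821. The next, III:3862415-3869952 (7538 bp), reached the ceiling in each list, as 1 peak in replicate 1 and as 2 peaks with 6002 bp in replicate 2. III:6373251-6380556 (7306 bp) was split the other way, with 2 peaks of 4416 bp together in replicate 1 and 1 peak of 7276 bp in replicate 2, and both were at the ceiling. Both lists thus covered most of the first 2, and the number of peaks within them was not the same in the lists.

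At the ceiling in both lists were also III:8443090-8449126 (6037 bp), III:11916768-11922319 (5552 bp) and III:4015309-4020776 (5468 bp). So were III:5077220-5082410 (5191 bp), III:5938908-5943960 (5053 bp) and III:4472531-4477554 (5024 bp). At III:5077220-5082410 replicate 2 covered 1773 bp and replicate 1 the whole, so the site was broad in 1 list alone although both reached the ceiling. At III:8443090-8449126 each list had a single peak over 5 kb (5329 and 5239 bp).

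The other 4 broad regions were below the ceiling in at least 1 list. III:10629951-10635030 (5080 bp) was at the ceiling in replicate 1 and scored 1097 in replicate 2, and III:5447135-5452165 (5031 bp) scored 2414 and 863. III:9636474-9642597 (6124 bp) was covered almost whole by 2 peaks of replicate 1 but over 1044 bp in replicate 2. III:505452-511136 (5685 bp) was wide but weak, with scores of 147 and 359 and widths of 4886 and 5685 bp. Width alone therefore did not go with a high score at each site.

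**Figure D5:**
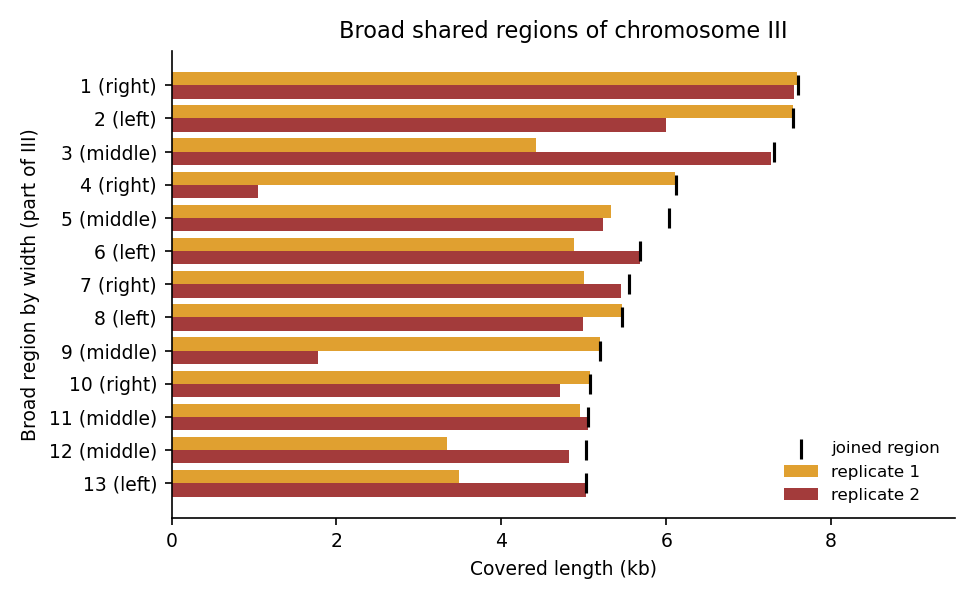
Bases covered by peaks of replicate 1 and replicate 2 in the 13 shared regions of chromosome III wider than 5 kb, ordered by the width of the joined region (black mark), with the part of the chromosome in brackets. In the fourth and the ninth region replicate 2 covered 1044 and 1773 bp, and in the others at least 3337 bp were covered in each list.

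Most peaks of III that a single list held had low scores and small widths. The 248 of replicate 1 had scores from 50.2 to 2091 with a median of 130.2, whereas its 562 peaks with a partner had a median of 2983. Their widths had medians of 888 and 1575.5 bp. The 38 of replicate 2 had scores from 51.6 to 1082 with a median of 77.3, whereas the other 571 had a median of 1081. Here the widths had medians of 1107.5 and 1483 bp. Above the median score of their own list stood 4 of the 248 and 1 of the 38.

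Within bands of score, peaks of III were found in the other list about as often as those of other autosomes, with exceptions in both directions. In replicate 1 the share was 4.08% under a score of 100 (4 of 98, 1.60 to 10.0%), against 10.9% on the other autosomes together (8.08 to 14.5%). From 100 to 300 it was 23.5 and 23.3%, and from 300 to 1000 it was 64.8% (56.6 to 72.2%) and 74.0% (69.9 to 77.7%). In the band from 300 to 1000 chromosome II had nearly the same share as III (65.1%), whereas I, IV and V had 71.8 to 81.8%. In replicate 2 the peaks of III from 100 to 300 were found in 94.7% (88.1 to 97.7%), against 84.4% (80.5 to 87.6%). This is the one of these bands in which the intervals do not overlap, among 10 bands compared.

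The highest-scoring peaks of replicate 1 alone on III were also wide. The first, III:7728464-7733390 (4927 bp), scored 2091 and had its nearest replicate 2 peak at 16215 bp. The second, III:2636165-2641006 (4842 bp), scored 1871 and had it at 15735 bp. The third, III:8132408-8135865 (3458 bp), scored 1167 and had it at 1004 bp.

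These 3 were also the widest of replicate 1 alone. They were followed by III:773062-774731 with a score of 964 and III:6145935-6148142 with a score of 782. In replicate 2 alone, the highest score was 1082 at III:12992287-12993869 (1583 bp), with the nearest replicate 1 peak at 12386 bp. The next were III:13592878-13597984 (683), III:1299362-1303469 (604), III:11427124-11428294 (576) and III:13584043-13589676 (544).

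The widest peaks of replicate 2 alone exceeded 5 kb, at III:13584043-13589676 (5634 bp), III:7443981-7449289 (5309 bp) and III:13592878-13597984 (5107 bp). Of the 9 peaks of replicate 2 on III wider than 5 kb, 6 were found in replicate 1, whereas on the other autosomes together 21 of 22 were. All 7 peaks of replicate 1 on III wider than 5 kb were found in replicate 2 and were at the ceiling. The peaks over 5 kb missing from the other list on III were thus peaks of replicate 2 with scores from 329 to 683. Just under this limit, replicate 1 alone held peaks of 4927 and 4842 bp, which scored 2091 and 1871.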

How the data were processed

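The members and lists were chosen with earlier results of these data known. Per the submitters' processing notes reads were aligned with BWA, with no version given there. Positions are on WormBase WS190, per the file headers. MA2C stands in the source column of the deposited lists and MACS in the peak names, so the caller is not settled, with thresholds not given in the sources used here. Peaks were called per sample. The deposited score and the other deposited values, which are the 2 borders of a peak, were used as they stand.

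Peaks of the lists were joined at an overlap of 1 bp or more, which was checked on simulated lists. The span of a chromosome runs from base 1 to the end of its last peak. Windows, parts and segments hold the regions whose midpoint lies in them. The gap is the number of bases between neighbours. Segments of 100 kb were started every 10 kb. Percentiles are average ranks over the whole list. Shares have 95% Wilson intervals, which cover counting error only. No p-values were computed, since there is 1 group of 2 samples, which may be technical replicates. Named regions followed a fixed rule: all 1 Mb windows, all shared regions wider than 5 kb, the 5 highest-scoring and 3 widest peaks of each list alone, the 3 densest segments, the 5 longest gaps, the 3 largest rank differences in each direction, the longest group with gaps up to 1 kb and the 3 regions with most peaks. The closest pair, the narrowest region and the run at the right end were chosen after their values were seen, as were the classes of distance, score and width and the comparison of chromosome ends. Alternatives are given in the closing section. Python 3.11.15, NumPy 2.4.6, SciPy 1.17.1 and matplotlib 3.10.9 were used. No gene was assigned, since no annotation of WS190 was used here.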

Additional observations from a re-analysis of the deposited data

How the results depend on the processing

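No paired analysis was possible because the ChIP samples form a single group. Of 65 alternative values for 10 results on III, 41 stayed within a set limit and 24 moved beyond it. The limit was 1.5 times for counts and the 95% interval for shares and rho. For density, ratio, width, gap and percentile it was 1 SD between the lists. A reversal was defined for the ratio of middle to outer density alone, and it did not occur. The SD of density, ratio, width and gap came from the single lists, which were also among the alternatives. In those single-list alternatives the counts were of peaks and not of shared regions. III remained the densest autosome under all 7 other settings of the lists; the narrowest margin was 38.0 against 37.9 shared regions per Mb with peaks closer than 500 bp merged. With each list limited to scores at or above its median, there were 337 shared regions, 24.5 per Mb, with a median width of 1873 bp, a median gap of 22793 bp and a rho of 0.684, and 76.4% and 98.6% of the peaks of replicates 1 and 2 were found in the other list. With scores of 100 or more, rho was 0.879 and 97.0% of the replicate 2 peaks were found. With lists of equal length (3280 peaks) the shares were 87.3% and 91.0%. With a reciprocal overlap of 50% they were 65.9% and 87.7%, and 8 regions were wider than 5 kb. Broad regions numbered 22 with close peaks merged, 34 above 4 kb, and 2 with a peak over 5 kb in each list. With either replicate left out, the density ranged from 44.2 to 58.8 per Mb, the median width from 1345.5 to 1467 bp, the median gap from 8885 to 12509 bp and the peaks over 5 kb from 7 to 9. The ratio of middle to outer density was 1.64 with the central 50% as the middle, and rho was 0.788 without regions at the ceiling. A stricter score limit and a single list change the number of peaks by construction. The cause of the other shifts was not tested. What depth does to low-scoring peaks of III could not be measured without read counts.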

Other observations

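Regions called in replicate 2 alone gathered at the right end of III, and this was noticed after the values were seen. The last 1 Mb of the span held 15 of the 38 (39.5%), together with 36 shared regions and 21 of replicate 1 alone, and the first 1 Mb held 2. At the ends of the other autosomes the last or first 1 Mb held 0 to 6 regions of replicate 2 alone, at most 15% of those of the chromosome. Away from the ends, 1 Mb windows of other autosomes held up to 10, as in the second and the fifth window of IV (19.6% of those of IV each), and a window of V held 9.

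Within this end, 4 peaks of replicate 2 followed each other almost without a break at III:13584043-13599089, 173 kb from the right end of the span. They measured 5634, 3067, 5107 and 1006 bp, scored 544, 174, 683 and 71.0, and were separated by 60, 74 and 99 bp, so that they covered 98.5% of 15047 bp. No peak of replicate 1 lay within 17762 bp to the left or 5147 bp to the right. Among runs of peaks of 1 list alone with gaps of up to 1 kb, the longest of either list on the other autosomes held 2 or 3 peaks and measured at most 6251 bp, and that of replicate 1 on III measured 5247 bp. Whether copy number, mappability or the input samples move with this run was not tested.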
